A study of Mus musculus with 2 samples.

Results

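The clustered protocadherins are adhesion proteins encoded in a single array on mouse chromosome 18, and their expression was followed here in Cajal-Retzius (CR) cells of the hippocampus with and without the transcriptional repressor capicua (CIC). Members were all genes whose symbol begins with Pcdha, Pcdhb or Pcdhg followed by a digit, or by a letter and a digit. This rule took 57 of the 32285 genes counted, of which 14 belong to the alpha cluster, 22 to the beta cluster and 21 to the gamma cluster. The rule uses names only and no measured value.

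CR cells are early-born, mostly transient neurons that secrete reelin. They were sorted as living tdT-positive cells from the hippocampus at postnatal day 14 and measured by droplet-based single-cell RNA-sequencing of transcript 3′ ends. The control library came from 4 pooled ΔNp73-Cre; Cicflox/+; tdT mice (3 males and 1 female), which are conditional heterozygotes, and the knockout library from 4 pooled ΔNp73-Cre; Cicflox/flox; tdT littermates (2 males and 2 females). Both groups carry the Cre driver, the tdT reporter and at least 1 floxed Cic allele, and Cre is driven from the ΔNp73 locus, which is active in CR cells of the cortical hem among others. The study reports loss of CIC from only part of the CR cells in such knockout mice. The knockout library may therefore also hold cells with CIC. There is 1 library per genotype, so mice and genotypes cannot be told apart. No test between genotypes was possible. Intervals are 95% exact intervals that cover counting error only.

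Each clustered protocadherin is a membrane protein with extracellular cadherin repeats that binds the same isoform on a neighbouring cell. Neurons are known to switch on a few isoforms each, by a largely random choice among promoters that CTCF and cohesin bring to distant enhancers. The resulting combination serves in recognition between the branches of 1 cell, and the gamma cluster is also known for the survival of several kinds of interneuron. The C-type isoforms at the ends of the alpha and gamma clusters are chosen less randomly and are used more uniformly between cells.

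The structure of the array limits what 3′ counting can see. On GRCm38 the alpha members extend over chr18:36930184-37187661, the beta members over chr18:37264938-37524479 and the gamma members over chr18:37661793-37841873, all on the plus strand. A full-length alpha or gamma transcript joins its own long first exon to constant exons at the end of its cluster. In the GENCODE M21 annotation the last 500 transcript bases were shared with another gene in 14 of 14 alpha members and 21 of 21 gamma members, and in none of 21 of the 22 beta members. These are the bases of the transcript that reaches farthest. For 2 alpha and 10 gamma members, Pcdha4, Pcdhga7, Pcdhga12 and Pcdhgc4 among them, the annotation also holds a shorter transcript that ends in bases of their own, whose 3′ end can be counted. Reads in shared bases cannot be given to 1 gene. Alpha and gamma UMIs (unique molecular identifiers, 1 per captured molecule) therefore stem from bases that a member does not share. In exons these are 2346 to 4675 bases in the alpha and 1570 to 4614 in the gamma members. Whether reads in introns were counted is not given in the sources used here, so some UMIs may stem from introns. The unshared exonic bases end 26952 to 254989 bases before the end of the gene in the alpha cluster and 16853 to 176834 in the gamma cluster, against 0 to 455 in the beta cluster. Levels are consequently understated to a different degree in the 3 clusters. They are given as CPM, meaning UMIs per 1000000 UMIs outside mitochondrial and ribosomal protein genes, are not divided by length because a UMI marks 1 captured tag, and are compared between genotypes within a cluster.

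Cells were barcodes with at least 2000 UMIs and at least 5 UMIs of Reln. There were 1003 in the control library (median 6224 UMIs per cell, 6601724 UMIs in all outside the genes left out) and 390 in the knockout library (median 6664, 2765943 in all). No cell barcode was shared. The 10 CR markers, Reln and Trp73 among them, were all detected and summed to 15239 CPM in the control against 14826 CPM in the knockout. Markers of other cell types summed to 1.06 and 0.723 CPM for GABAergic neurons, 18.3 and 18.8 for granule and pyramidal neurons, 133 and 119 for astrocytes, 74.4 and 95.5 for the oligodendrocyte lineage, 36.5 and 32.2 for microglia, and 128 and 127 for vascular and meningeal cells, and their part in the results was not tested. Single genes gave most control UMIs of the last 4 sums. These were Slc1a2 (612 of 880), Cspg4 (396 of 491), P2ry12 (146 of 241) and Rgs5 (535 of 844). Cic itself had 389 UMIs (58.9 CPM) in the control against 142 (51.3 CPM) in the knockout, a ratio of 0.871 (0.714 to 1.06). The sources used here do not say which exons are floxed, so a 3′ tag may lie outside the deleted part and this value checks nothing.

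Over all members together the genotypes were close, and the 3 clusters differed in direction. The gamma cluster was lower in the knockout, the beta cluster was slightly higher, and the alpha cluster was near equal. The 57 members gave 1229 UMIs in the control (186 CPM) and 475 in the knockout (172 CPM), a knockout-over-control ratio of 0.923 (0.828 to 1.03). The median log2 ratio of all 13328 genes with at least 20 UMIs was 0.01, so the scale itself was close to even.

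The gamma cluster had 591 UMIs in the control, or 89.5 CPM (82.5 to 97.0), and 173 in the knockout, or 62.6 CPM (53.6 to 72.6). These levels did not overlap within counting error, and the ratio was 0.699 (0.586 to 0.829). The beta cluster had 418 UMIs and 63.3 CPM (57.4 to 69.7) in the control, against 213 UMIs and 77.0 CPM (67.0 to 88.1) in the knockout. Its ratio was 1.22 (1.03 to 1.44), an interval whose lower end lies just above 1. The interval takes UMIs to be independent. However, 103 control pairs of UMIs of the same beta member lay in the same cell, where spread by depth would give 6.54. In the knockout there were 61, where depth would give 5.02. The interval is therefore too narrow, and whether a wider one would include 1 was not computed. Gamma UMIs gathered as well, with 94 control pairs of the same member in a cell where depth would give 13.6. In the knockout there were 24 such gamma pairs, where depth would give 3.18. The gamma intervals, here and in subsets of the cells, are thus also too narrow, by an amount not computed. The alpha cluster had 220 UMIs and 33.3 CPM (29.1 to 38.0) in the control, against 89 UMIs and 32.2 CPM (25.8 to 39.6) in the knockout, a ratio of 0.966 (0.746 to 1.24).

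Set against each other within a library, where the scale cancels, the beta cluster had 0.707 UMIs (0.623 to 0.803) for each gamma UMI in the control against 1.23 (1.00 to 1.51) in the knockout. The gamma cluster thus gave more UMIs than the beta cluster in the control, whereas the beta cluster gave at least as many in the knockout. For each gamma UMI there were 0.372 alpha UMIs (0.317 to 0.435) in the control against 0.514 (0.394 to 0.668) in the knockout.

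**Figure D1:**
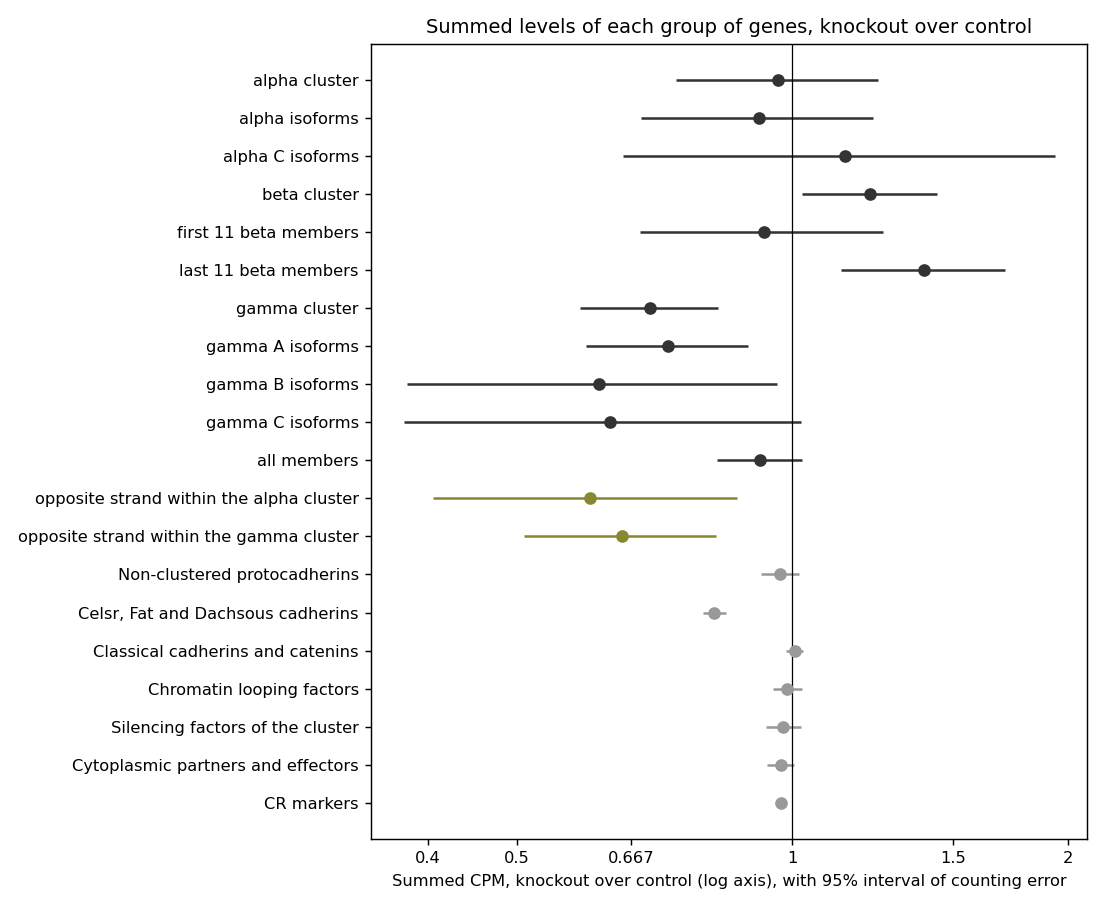
Summed CPM in the knockout over the control (x axis, log scale) for the clusters and their subfamilies (black), for the genes on the opposite strand within the array (olive) and for related gene lists (grey); lines are 95% intervals of counting error from 1 library per genotype. The gamma cluster and its A and B isoforms lie below 1 with their intervals, the beta cluster lies at 1.22, and the lists of looping and silencing factors lie close to 1. The intervals of the beta and gamma clusters take UMIs to be independent and are too narrow.

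All 21 gamma members were detected in both libraries. Of these, 19 had a lower and 2 a higher CPM in the knockout, and their median log2 ratio was −0.70. No member of the array reached 100 UMIs over both libraries, so single members are measured coarsely. With a minimum of 20 UMIs, chosen after the counts were seen, 16 gamma members could be compared, and 9 of them were at least 1.5-fold lower and 1 at least 1.5-fold higher in the knockout. Over all 13328 genes with that minimum, 5.56% were at least 1.5-fold lower and 7.50% at least 1.5-fold higher. Most of these genes (9442) had at least 100 UMIs, and of those only 1.66% were that much lower and 2.73% higher. Scarcer genes pass the fold more often, so the shares over all genes are too low a background for the members. The 9 and 1 of 16 gamma members are therefore not read as a result about single members.

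The gamma A isoforms, the largest subfamily of the cluster, had 411 UMIs (62.3 CPM) in the control against 126 (45.6 CPM) in the knockout, a ratio of 0.732 (0.595 to 0.895). The gamma B isoforms had 97 (14.7 CPM) and 25 UMIs (9.04 CPM), a ratio of 0.615 (0.380 to 0.963). The 3 subfamilies lay in the same direction, and the intervals of their ratios overlapped.

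Pcdhga3 gave the most UMIs of any member over both libraries, with 70 (10.6 CPM) in the control against 18 (6.51 CPM) in the knockout. Its ratio of 0.614 (0.344 to 1.04) did not exclude 1. Pcdhga7 had 52 UMIs (7.88 CPM) and 11 UMIs (3.98 CPM), a ratio of 0.505 (0.238 to 0.980). Pcdhga8 had 29 UMIs (4.39 CPM) and 4 UMIs (1.45 CPM), a ratio of 0.329 (0.0841 to 0.938). Pcdhga7 and Pcdhga8 were the only gamma members whose interval lay wholly below 1. Of all 13328 genes with at least 20 UMIs, 7.66% had a ratio whose interval lay below 1, and for 9.93% it lay above 1. Most of these genes have more UMIs than the gamma members and hence narrower intervals, so the shares are not a like background. The 2 of 16 gamma members are therefore not read as a result about single members. The difference is read in the sum of the cluster, not in a single isoform. Of the 21 gamma members 19 were lower, but the share of equally scarce genes on that side was not computed.

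Other gamma A members at or past 1.5-fold were Pcdhga9 (37 control and 7 knockout UMIs, ratio 0.452), Pcdhga10 (22 and 5, 0.543) and Pcdhga12 (57 and 15, 0.628). Pcdhga5 (40 and 16 UMIs) and Pcdhga6 (25 and 10) had the same ratio of 0.955. The exceptions in direction were Pcdhga11, with 49 UMIs (7.42 CPM) in the control against 25 (9.04 CPM) in the knockout (ratio 1.22, 0.721 to 2.01), and Pcdhga1, with 11 and 10 UMIs (ratio 2.17, 0.826 to 5.63). Both intervals include 1, so neither can be said to go against the rest of its cluster.

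Among the gamma B members, Pcdhgb6 had 30 and 7 UMIs (ratio 0.557), Pcdhgb4 had 22 and 6 (0.651) and Pcdhgb5 had 17 and 7 (0.983). The 3 gamma C isoforms together had 83 UMIs (12.6 CPM) in the control against 22 (7.95 CPM) in the knockout, a ratio of 0.633 (0.376 to 1.02). Pcdhgc4, known for its role in the survival of cortical interneurons, gave the most UMIs of them. It had 43 UMIs (6.51 CPM) in 3.79% of control cells and 13 UMIs (4.70 CPM) in 3.08% of knockout cells. Its ratio was 0.722 (0.356 to 1.37), which leaves both a decrease and no difference within counting error. Pcdhgc3 had 24 and 4 UMIs (ratio 0.398, 0.100 to 1.16) and Pcdhgc5 had 16 and 5 (0.746). The remaining 5 gamma members, Pcdhga2, Pcdhga4, Pcdhgb1, Pcdhgb2 and Pcdhgb7, had 7 to 17 UMIs in all and were lower in the knockout, with intervals that include 1.

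**Figure D2:**
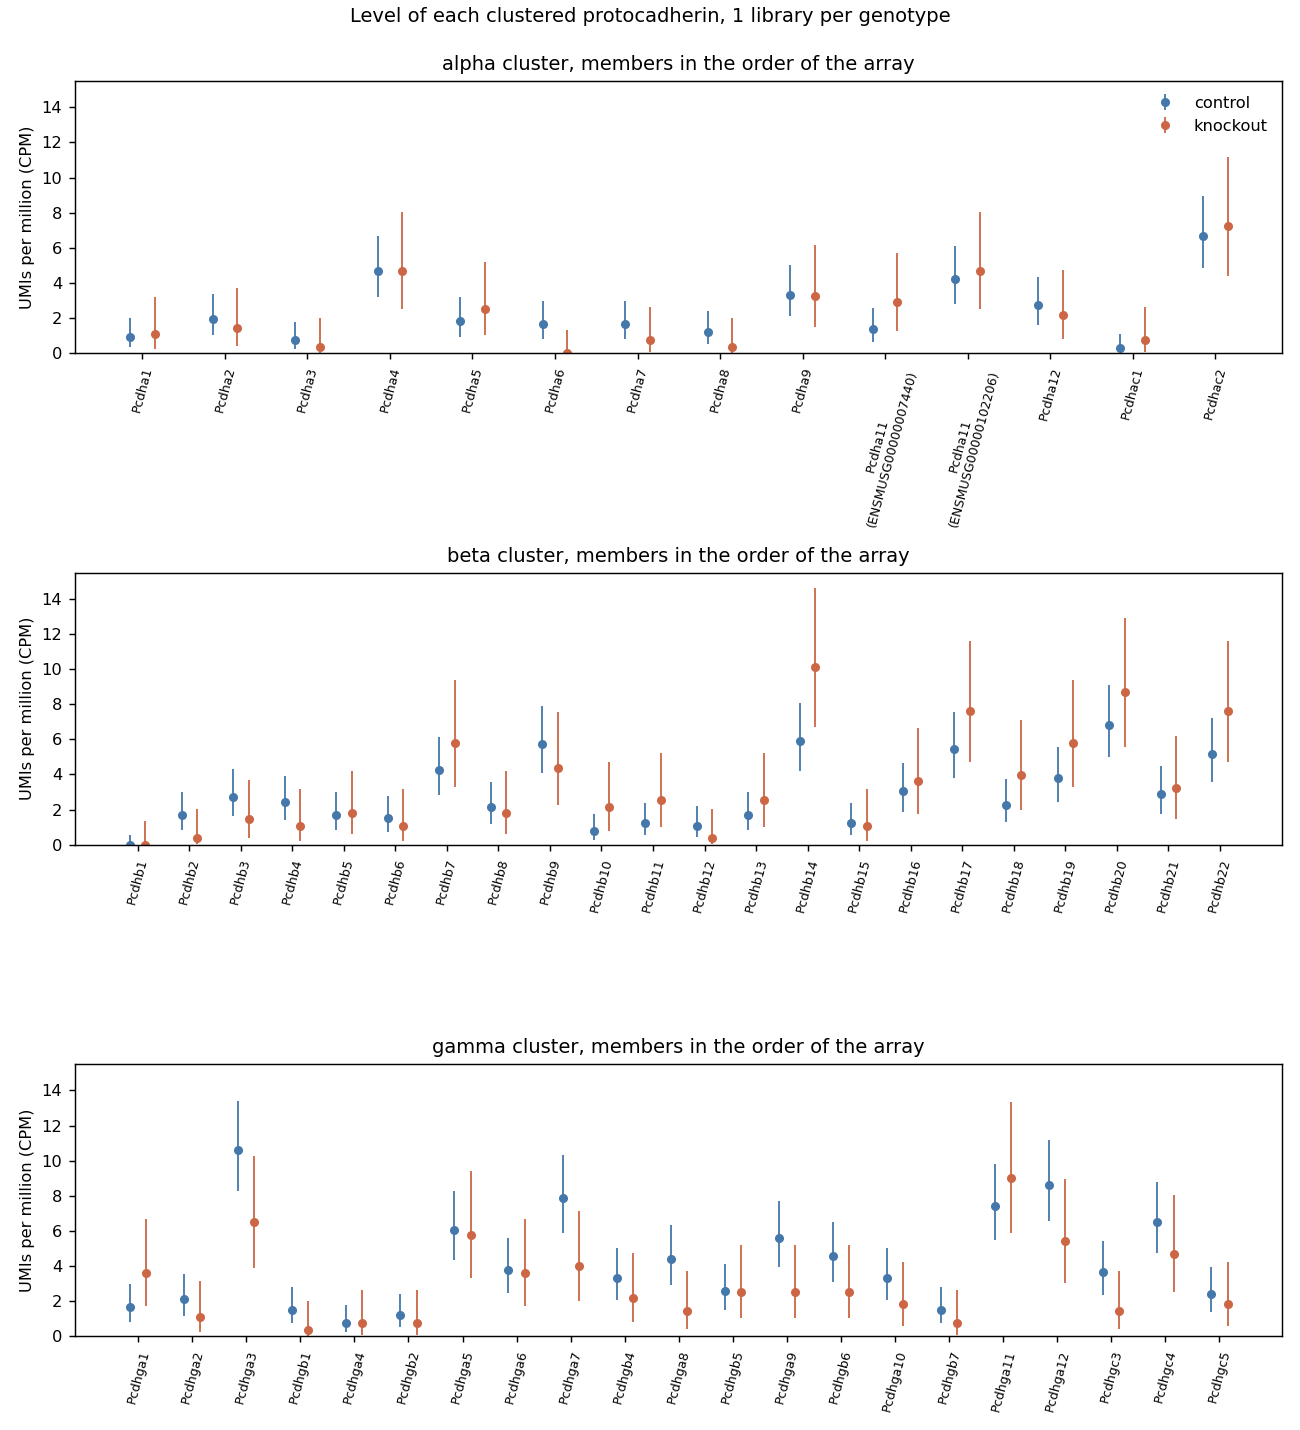
CPM of each member (y axis) in the control (blue) and the knockout (orange), in the order of the array (x axis); bars are 95% Poisson intervals of the UMIs of 1 library. Most gamma members lie lower in the knockout, the beta members from Pcdhb16 to Pcdhb22 lie higher in it, and nearly all pairs of intervals overlap.

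The 22 beta members are mostly single-exon genes with their own 3′ ends, so this is the cluster that 3′ counting measures best. Pcdhb1 had no UMI in either library, and the 3 counts that a count of 0 allows correspond to 0.454 CPM (control) and 1.08 CPM (knockout). Of the other 21, 13 had a higher and 8 a lower CPM in the knockout, with a median log2 ratio of 0.26. Of the 11 with at least 20 UMIs, 3 were at least 1.5-fold higher and 1 at least 1.5-fold lower. The shares over all genes, 7.50% and 5.56%, are too low a background for genes this scarce, so these counts are not read as a result.

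Pcdhb14 had 39 UMIs (5.91 CPM) in 2.89% of control cells and 28 UMIs (10.1 CPM) in 5.13% of knockout cells. Its ratio was 1.71 (1.02 to 2.86), and it was the only member of the array whose interval lay above 1. Its UMIs gathered in cells, with up to 6 in a control cell and 4 in a knockout cell, so this interval is too narrow as well. Pcdhb19 had 25 UMIs (3.79 CPM) and 16 UMIs (5.79 CPM), a ratio of 1.53 (0.762 to 2.98). Pcdhb18 had 15 and 11 UMIs, a ratio of 1.75 (0.727 to 4.08). The beta member at least 1.5-fold lower was Pcdhb3, with 18 and 4 UMIs (ratio 0.530, 0.131 to 1.61, or 0.299 without the cell with the most UMIs in each library).

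Pcdhb20 gave the most UMIs of the beta members over both libraries, with 45 (6.82 CPM) and 24 (8.68 CPM), a ratio of 1.27. The other members with at least 20 UMIs were Pcdhb7 (28 and 16 UMIs, ratio 1.36), Pcdhb9 (38 and 12, 0.754), Pcdhb16 (20 and 10, 1.19), Pcdhb17 (36 and 21, 1.39), Pcdhb21 (19 and 9, 1.13) and Pcdhb22 (34 and 21, 1.47). All of these intervals include 1. The remaining 10 detected beta members had 8 to 19 UMIs each.

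The higher beta level lay in the part of the cluster next to the gamma cluster. The 11 members from Pcdhb12 to Pcdhb22 had 259 UMIs (39.2 CPM) in the control against 151 (54.6 CPM) in the knockout, a ratio of 1.39 (1.13 to 1.71), and 9 of the 11 were higher. The 11 members from Pcdhb1 to Pcdhb11 had 159 UMIs (24.1 CPM) and 62 (22.4 CPM), a ratio of 0.931 (0.683 to 1.26). The intervals of these ratios overlap and, as for the whole cluster, are too narrow. The split was made after the values were seen.

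The alpha cluster had 7 members with a higher and 7 with a lower CPM in the knockout, and a median log2 ratio of 0.00 over the 13 members detected in both. Pcdhac2, a C-type isoform at the end of the cluster, gave the most UMIs of the alpha members. It had 44 UMIs (6.67 CPM) and 20 UMIs (7.23 CPM), a ratio of 1.08 (0.606 to 1.88). Pcdha4 had 31 UMIs (4.70 CPM) in the control against 13 UMIs (4.70 CPM) in the knockout. The equality of Pcdha4 rests on 1 knockout cell with 5 of the 13 UMIs, and leaving out the cell with the most UMIs in each library turned its ratio from 1.00 to 0.658.

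The symbol Pcdha11 belongs to a pair of genes in the count table. The gene ENSMUSG00000102206 had 28 and 13 UMIs (ratio 1.11), and the gene ENSMUSG00000007440 had 9 and 8 (ratio 2.12, 0.712 to 6.19). Pcdha9 had 22 and 9 UMIs (ratio 0.976), and Pcdha12 had 18 and 6 (0.796). Pcdha6 had 11 UMIs in the control and none in the knockout, and the interval of the ratio was 0 to 0.951. The other 8 alpha members, the second Pcdha11 gene included, had 4 to 19 UMIs each, and none of the 5 with at least 20 UMIs was past 1.5-fold.

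The order of the isoforms was alike in both genotypes. Spearman's rho between the control and knockout CPM was 0.80 over the 14 alpha members, 0.84 over the 22 beta members and 0.85 over the 21 gamma members, as a description over genes that share libraries and annotation. In both libraries Pcdhac2 and Pcdha4 stood at or near the top of the alpha cluster, and Pcdhb14, Pcdhb17 and Pcdhb20 were among the highest of the beta cluster. The order in the gamma cluster began with Pcdhga3 in the control and with Pcdhga11 in the knockout, a pair whose intervals overlapped within each library.

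The gamma level was lower in the knockout in each subset of cells described here. The libraries differ in the sex of the mice, so cells were divided by their sex-linked RNA, a division made after the main values were seen. Among 702 control and 194 knockout cells with a Y-linked UMI and no Xist UMI, the gamma cluster had 88.4 and 68.6 CPM, a ratio of 0.776 (0.616 to 0.969). Among 227 and 176 cells with Xist and no Y-linked UMI it had 82.9 and 58.8 CPM, a ratio of 0.708 (0.521 to 0.957). The beta ratio was 1.09 (0.859 to 1.38) in the former and 1.26 (0.942 to 1.68) in the latter, so within either set of cells counting error alone spans a ratio of 1.

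In the cells of at least 4000 and under 12000 UMIs the gamma ratio was 0.743 (0.615 to 0.894) and the beta ratio 1.30 (1.08 to 1.56). The gamma level also varied with depth within a library. It was 93.8 to 97.9 CPM in control cells below 12000 UMIs and 63.0 CPM in those at or above it, and in the knockout 65.5 to 78.8 CPM and 30.3 CPM. In the knockout this was not particular to gamma. Beta was at 47.38 CPM in the deepest cells against 77.04 to 85.95 CPM below 12000 UMIs. Alpha was at 18.95 CPM, against 33.21 to 40.93 CPM from 4000 to under 12000 UMIs. In the deepest control cells, beta (61.04 CPM) and alpha (34.02 CPM) lay within the range of shallower cells.

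Cells in which nuclear genes of the respiratory chain take at least 1.5% of UMIs, 102 in the control and 41 in the knockout, were deeper (medians of 13182 and 13104 UMIs). This is a range of a score, with 52 and 25 cells between 1.25% and 1.75% of UMIs. In the control, the gamma cluster was at 52.6 CPM in these cells and at 96.6 CPM in the others, a ratio of 0.544 (0.406 to 0.718), while the beta ratio was 0.888 (0.666 to 1.17) and the alpha ratio 0.917 (0.614 to 1.33). In the knockout, the ratios were 0.331 (0.162 to 0.608) for gamma, 0.561 (0.343 to 0.874) for beta and 0.352 (0.126 to 0.799) for alpha, on 11, 22 and 6 UMIs. Low gamma levels thus went with this score in both genotypes. Within these cells the knockout-over-control ratio was 0.444 (0.210 to 0.857) for gamma, 0.815 (0.477 to 1.35) for beta and 0.411 (0.141 to 0.993) for alpha, so the beta ratio lay on the other side of 1 here, on few UMIs. Without these cells the ratio was 0.731 (0.609 to 0.873) for gamma and 1.29 (1.08 to 1.54) for beta.

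Etv4 and Etv5 are known to be repressed by CIC, and the knockout cells were divided by this RNA. A UMI of either was found in 162 of the 390 knockout cells and in 87 of the 1003 control cells. The gamma level was 54.5 CPM in the 162 knockout cells with such a UMI and 68.9 CPM in the 228 without, a ratio of 0.791 (0.574 to 1.08). Against the control, the ratio was 0.609 (0.466 to 0.785) for the former and 0.770 (0.620 to 0.948) for the latter. The beta ratios were 1.14 (0.900 to 1.44) and 1.27 (1.03 to 1.56). The gamma level was therefore below the control in both sets of knockout cells, and the difference between the sets was within counting error. The cells with such a UMI were deeper, with a median of 7266 UMIs against 6210 in those without. A cell without such a UMI may hold the RNA uncaught, so the division does not tell which cells lost CIC.

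**Figure D3:**
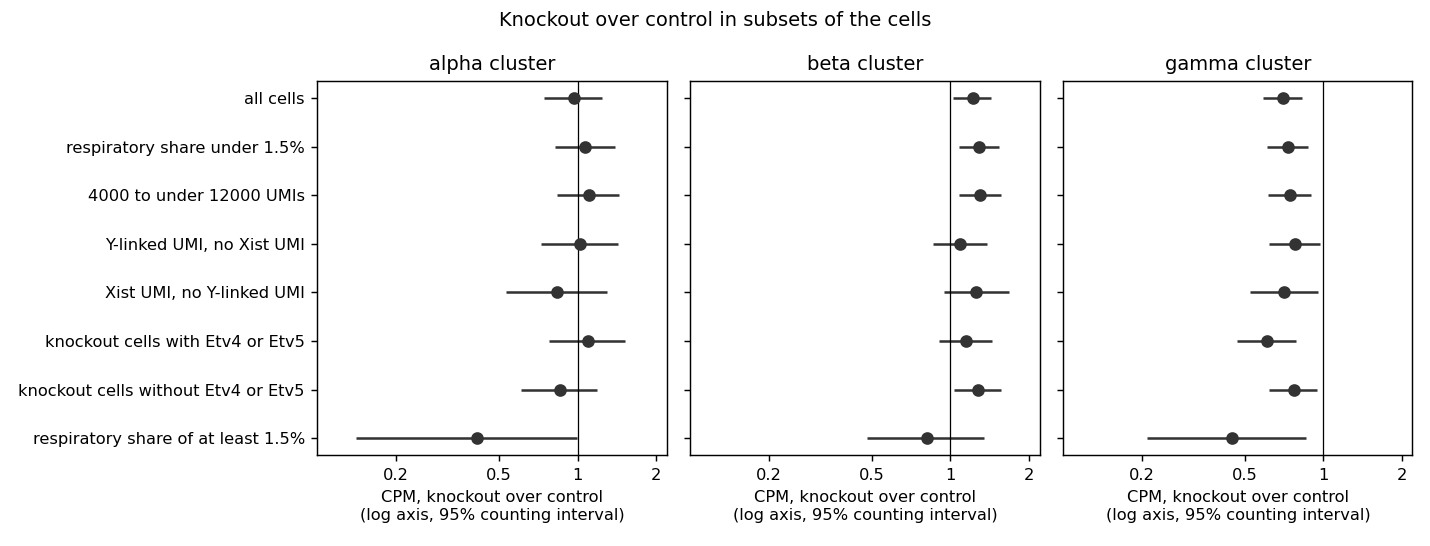
CPM in the knockout over the control (x axis, log scale) for each cluster in all cells and in subsets of the cells (y axis); points are ratios and lines 95% intervals of counting error. The gamma ratio lies between 0.444 and 0.776 with its whole interval below 1 in each row, the beta ratio between 1.09 and 1.30 except in the cells of high respiratory share (0.815), and the alpha ratio on either side of 1. The intervals take UMIs to be independent and are too narrow, and the rows share cells.

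Droplets without cells, taken as barcodes of 20 to 100 UMIs, held the array at lower levels than the cells. Gamma UMIs made up 12.4 CPM in the control (29040 droplets) and 8.23 CPM on the knockout side (75813 droplets), beta UMIs 19.3 and 15.1 CPM, and alpha UMIs 5.51 and 3.95 CPM. In the cells, these levels were exceeded 7.22-fold and 7.60-fold for gamma, 3.29-fold and 5.09-fold for beta, and 6.05-fold and 8.15-fold for alpha. The knockout-over-control ratio in droplets was 0.664 (0.370 to 1.19) for gamma, 0.785 (0.505 to 1.22) for beta and 0.717 (0.295 to 1.75) for alpha. With the mean UMIs of a droplet subtracted for each cell, the ratio in cells was 0.695 for gamma, 1.21 for beta and 0.961 for alpha. This takes away so few UMIs that it could hardly move a ratio. A UMI of any member was found in 0.255% of control droplets and 0.107% of knockout droplets, at median depths of 89 and 44 UMIs. The control median lies close to the limit of 100, so the window may miss part of that library's background. The barcodes with at least 2000 UMIs and fewer than 5 of Reln, 8 in the control and 16 in the knockout, were too few for a level in another cell type.

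Few isoforms were seen in any 1 cell. A member was detected in 64.1% (61.0 to 67.1) of control cells and 66.2% (61.2 to 70.8) of knockout cells. The mean number of members per cell was 1.09 (highest 6) in the control and 1.03 (highest 5) in the knockout, and 28.5% and 26.4% of cells had at least 2. The number rose with depth, from a mean of 0.520 in control cells under 4000 UMIs to 2.00 in those of at least 12000. The counts are thus of isoforms caught, not of isoforms in use.

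Thinning every cell to 3000 UMIs left 984 control and 387 knockout cells, without 19 and 3 shallower ones, and the mean was then 0.506 in the control and 0.421 in the knockout. At least 1 member remained in 39.7% (36.7 to 42.9) of control cells and 34.6% (29.9 to 39.6) of knockout cells. At least 2 remained in 8.74% (7.05 to 10.7) and 6.72% (4.44 to 9.69). These intervals overlap. By cluster, a gamma member remained in 23.0% (20.4 to 25.7) of control cells and 13.7% (10.4 to 17.5) of knockout cells, a beta member in 14.7% (12.6 to 17.1) and 17.1% (13.4 to 21.2), and an alpha member in 8.13% (6.50 to 10.0) and 8.27% (5.72 to 11.5). The gamma share was the only one whose intervals did not overlap after this thinning. The thinning was 1 random draw that was not repeated, so the lack of overlap may rest on the draw. Over all UMIs, a gamma member was found in 40.0% (36.9 to 43.1) of control cells and 35.1% (30.4 to 40.1) of knockout cells, intervals that overlap.

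**Figure D4:**
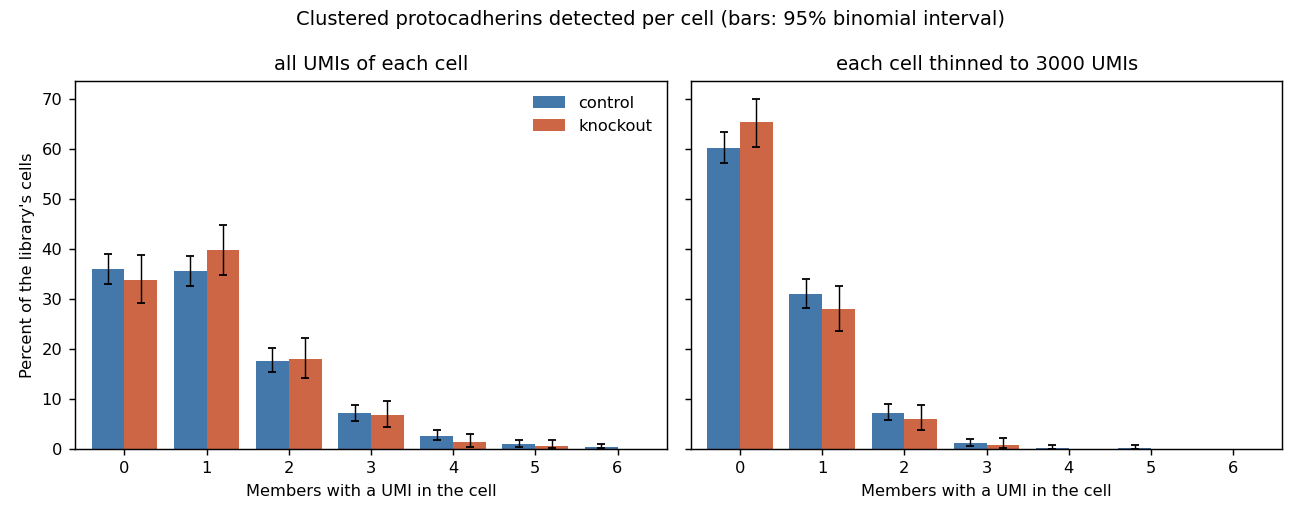
Percent of the cells of each library (y axis) by the number of members with a UMI in the cell (x axis), for all UMIs (left) and after thinning each cell to 3000 UMIs (right); bars are control (blue) and knockout (orange) with 95% binomial intervals. Most cells show 0 or 1 member, and the distributions of the genotypes overlap.

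UMIs of a beta isoform were concentrated in few cells. Pairs of UMIs of the same beta member in the same cell were 15.8 times as many in the control, and 12.1 times as many in the knockout, as UMIs spread in proportion to cell depth would give. For other genes of 20 to 100 UMIs the same measure was 6.30 in the control (4186 genes) and 3.68 in the knockout (5405 genes). For the gamma members it was 6.93 and 7.55. For the alpha members it was 1.98 in the control and 11.9 in the knockout, on 6 and 17 pairs. In the control, then, beta isoforms stood above other scarce genes and alpha isoforms were below. Gamma isoforms were close to those genes, but Pcdhga12 alone gave 39 of the 94 gamma pairs, most of them from 1 cell. The gamma value without that cell was not computed.

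The concentration of UMIs is also seen in single cells. Pcdhb9 had 38 UMIs in 23 control cells and 12 UMIs in 6 knockout cells, with up to 4 in a cell in each. Pcdhb14 reached 6 UMIs in a control cell of 7816 UMIs and 4 in a knockout cell of 5815. The highest value of any member was 9 UMIs of Pcdhga12, in a control cell of 4261 UMIs. In the knockout, Pcdhga5 reached 5 UMIs in a cell of 11810 UMIs and gave 13 of the 24 gamma pairs. In the knockout, Pcdha4 reached 5 UMIs in a cell of 6180 UMIs, which alone holds 10 of the 17 alpha pairs. Leaving it aside, the alpha excess in that library rests on 7 pairs.

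UMIs of a beta member were in values of at least 2 per cell for 29.4% (25.1 to 34.1) of control UMIs and 37.6% (31.0 to 44.4) of knockout UMIs. For gamma members this was 18.3% (15.2 to 21.6) and 15.6% (10.5 to 21.9). For alpha members it was 5.45% (2.85 to 9.33) and 18.0% (10.6 to 27.6). For other genes of 20 to 100 UMIs the share was 20.4% in the control, against 31.7% in the knockout. By this share the beta members lay above the other genes in the control, while in the knockout their interval includes the value of the other genes and gamma lay below it, unlike the pair measure. Only 4 beta members and 1 gamma member had 20 to 100 UMIs in the knockout library, so its members are scarcer than those genes. UMIs within a cell are not independent, so these intervals are too narrow.

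In contrast, different members of a cluster were not found together in a cell much more often than depth gives. Pairs of UMIs from different members of a cluster were 0.905 (beta), 1.08 (gamma) and 1.19 (alpha) times the number for UMIs spread by depth in the control, and 1.04, 0.716 and 0.925 times in the knockout. Between clusters in the control, the values were 0.831 for alpha with beta, 0.933 for alpha with gamma and 1.01 for beta with gamma. In the knockout they were 0.878, 0.561 (27 pairs where depth would give 48.1) and 0.782 (90 where depth would give 115.1). In the control, a cell with 1 isoform thus showed a further one about as often as its depth alone would give. In the knockout, pairs that include a gamma member were fewer than that, with 31 within the gamma cluster where depth would give 43.3. The number by depth takes the level to be equal at every depth. In knockout cells of at least 12000 UMIs, however, gamma was at 30.3 CPM, against 65.5 to 78.8 CPM in shallower cells. In the control it was at 63.0 CPM, against 93.8 to 97.9 CPM in shallower cells. The number is thus too high for gamma pairs in both libraries, by an amount not computed. Whether members gather or avoid each other was not tested.

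**Figure D5:**
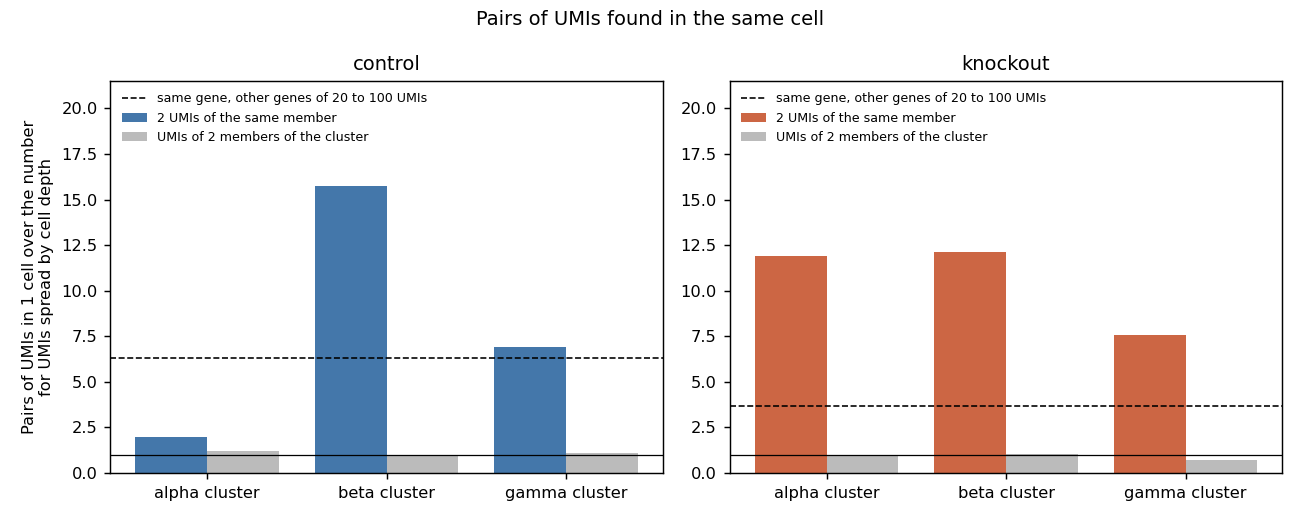
Pairs of UMIs found in 1 cell, over the number for UMIs spread by cell depth (y axis), for pairs of the same member (coloured bars) and of different members of a cluster (grey bars), in the control (left) and knockout (right). The solid line marks 1 and the dashed line the value for other genes of 20 to 100 UMIs (6.30 and 3.68). Beta members exceed the dashed line in both libraries, and pairs of different members lie between 0.716 and 1.19.

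Combinations rarely recurred. The 286 control cells with at least 2 members showed 268 combinations, of which 255 occurred in 1 cell only, and the 103 knockout cells showed 100, of which 97 occurred once. Of the 1596 possible pairs of members, 471 were seen in the control and 170 in the knockout. The most frequent pair was Pcdhb19 with Pcdhb20, in 7 control and 2 knockout cells, against 1.35 and 1.20 pairs of UMIs expected by depth. These genes are 136 bases apart on the same strand.

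The next pairs were Pcdhb17 with Pcdhgc4 (5 and 2 cells) and Pcdhga9 with Pcdhga12 (6 and 0 cells). A further 8 pairs tied for the next place with 5 cells. They include Pcdhb21 with Pcdhb22, neighbours that overlap in the annotation (4 and 1 cells). With 5 cells or more in only 11 of 1596 pairs, no preferred combination can be read from these counts.

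The summed levels of genes annotated on the opposite strand within the alpha and gamma clusters were also lower in the knockout. This group was taken by position after the main values were seen. The 5 within the gamma cluster had 326 UMIs (49.4 CPM) in the control against 89 (32.2 CPM) in the knockout, a ratio of 0.652 (0.510 to 0.826), and 4 of the 5 were lower while the other had no UMI. Most of these UMIs belonged to Gm26672, with 230 UMIs (34.8 CPM) and 66 (23.9 CPM), a ratio of 0.685 (0.513 to 0.904). The antisense gene Gm29994 had 40 and 7 UMIs (ratio 0.418, 0.158 to 0.942).

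The 6 genes on the opposite strand within the alpha cluster had 143 UMIs (21.7 CPM) and 36 UMIs (13.0 CPM), a ratio of 0.601 (0.405 to 0.871), whereas the alpha members were near equal. Gm10544 had 107 and 30 of these (ratio 0.669, 0.431 to 1.01), and Gm10545 had 31 and 5 (0.385, 0.117 to 0.999). The strand that was counted is not stated, and 8 gamma and 4 alpha members share exonic bases with an opposite-strand exon, so such reads may not be told apart.

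Genes around the array lay near even or above it. Taf7, a general transcription factor gene between the beta and gamma clusters, had 126 and 51 UMIs, a ratio of 0.966 (0.684 to 1.35). Diaph1, a formin gene 1728 bases beyond the gamma cluster, had 234 and 129, a ratio of 1.32 (1.05 to 1.64). Within 500000 bases on either side, the 16 genes with at least 100 UMIs had ratios from 0.837 to 1.495, and none was past 1.5-fold. The highest was Apbb3, with an interval of 1.036 to 2.140. With a minimum of 20 UMIs, 1700086O06Rik (42 and 38 UMIs, ratio 2.159, 1.355 to 3.431), Gnpda1 (52 and 33, 1.515) and Pcdh1 (10 and 10, 2.387) were past 1.5-fold higher and none lower. The intervals of Gnpda1 and Pcdh1 include 1.

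Factors that are known to act on the array were near equal in both genotypes. The list of 10 chromatin looping factors had 1496 CPM in the control against 1478 CPM in the knockout, a ratio of 0.988 (0.952 to 1.02), and 0 of the 10 were past 1.5-fold. Over all genes with at least 100 UMIs, 2.73% were at least 1.5-fold higher and 1.66% at least 1.5-fold lower. The ratio was 0.942 (0.791 to 1.12) for Ctcf, the DNA-binding factor at the promoters, 1.00 (0.854 to 1.17) for Rad21, a cohesin subunit, and 0.928 (0.821 to 1.05) for Wapl, which releases cohesin.

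The list of silencing factors holds 13 genes of silencing and DNA methylation, among them Tet1, Tet2 and Tet3, which act against methylation. Of these 13, 12 had at least 100 UMIs and 0 were past 1.5-fold, with ratios from 0.837 to 1.21. Smchd1, which represses the clusters, had 569 UMIs (86.2 CPM) and 228 UMIs (82.4 CPM), a ratio of 0.956 (0.817 to 1.12). Dnmt3b, a DNA methyltransferase that takes part in promoter choice in the early embryo, was scarce, with 18 and 6 UMIs.

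Of 19 cytoplasmic partners and effectors, 17 had at least 100 UMIs, and 1 was at least 1.5-fold higher and none lower. It was Prkca, a protein kinase C, with 131 UMIs (19.8 CPM) and 88 UMIs (31.8 CPM), a ratio of 1.60 (1.21 to 2.12). Their summed ratio was 0.971 (0.939 to 1.01). Others with an interval that excludes 1 were Abi1 (ratio 0.766, 0.643 to 0.908) and Abi2 (0.768, 0.680 to 0.865), subunits of the WAVE complex of actin regulation, and, by less, Fyn (0.864), Ptk2 (1.15) and Cyfip2 (1.19). These 5 were named after their values were seen.

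Among other cadherins, the 12 non-clustered protocadherins summed to a ratio of 0.970 (0.925 to 1.02), and 1 of the 7 with at least 100 UMIs was past 1.5-fold. Pcdh19, an X-linked gene, had 89 UMIs (13.5 CPM) in the control against 18 (6.51 CPM) in the knockout, a ratio of 0.483 (0.274 to 0.807). The libraries differ in their number of females, whose part in that value was not tested. Of the 9 Celsr, Fat and Dachsous cadherins, 0 of the 6 with at least 100 UMIs were past 1.5-fold, and the summed ratio of 0.822 (0.799 to 0.846) follows Fat3 (15645 and 5193 UMIs, ratio 0.792), which gives most of the UMIs. Celsr3, a cadherin of planar polarity, had a ratio of 1.15 (0.954 to 1.38).

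The 19 classical cadherins and catenins summed to a ratio of 1.01 (0.985 to 1.03), and 1 of the 13 with at least 100 UMIs was past 1.5-fold. It was Ctnna1, alpha-catenin, with 107 UMIs (16.2 CPM) and 85 UMIs (30.7 CPM), a ratio of 1.90 (1.41 to 2.54). Calb2, a CR marker, was higher at 1.54 (1.36 to 1.74), and Col1a1, a meningeal marker, at 1.96 (1.30 to 2.95), on 56 and 46 UMIs. The lower sum of the gamma cluster was therefore not shared by the sums of the non-clustered protocadherins or the classical cadherins. The sum of the Celsr, Fat and Dachsous cadherins was also lower (0.822, 0.799 to 0.846), mostly through Fat3.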

How the data were processed

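Single-cell RNA-sequencing data of tdT-positive hippocampal CR cells at postnatal day 14 were analysed, 1 pooled library per genotype. The authors deposited, per the file headers, raw UMI counts for every gene and barcode, without normalization or cell calling. The matrix header, the methods and the submitters' processing notes name different versions of Cell Ranger (4 in the header, 8.0.1 in the notes) and different mouse builds. Inclusion of intronic reads and counting of strand are not given in the sources used here. Shared bases and positions come from the GENCODE M21 annotation of GRCm38, matched by Ensembl gene identifier.

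Cells were barcodes with at least 2000 UMIs and at least 5 Reln UMIs. Levels are UMIs summed over cells per 1000000 UMIs outside mt-, Rpl, Rps and Mrp genes. With 1 library per genotype no test was run. CPM ratios have exact conditional intervals for a ratio of Poisson counts, and shares have Clopper-Pearson intervals (95%). These cover counting error only, and not differences between mice. The ratio intervals take UMIs to be independent and are too narrow where UMIs of a gene gather in few cells. A gene was called past the fold at 1.5-fold with at least 100 UMIs. The minimum of 20 UMIs was added later. Thinning drew 3000 UMIs per cell without replacement, in 1 random draw. Pairs of UMIs in a cell were compared with the number expected where each UMI falls in a cell in proportion to its depth. Doublets were left in, and leaving out the highest Scrublet scores (scanpy 1.11.5) was an alternative. All members are accounted for. Members with at least 20 UMIs and list genes past the fold are named with values, with Ctcf, Smchd1, Rad21, Wapl, Dnmt3b, Celsr3 and Cic. Members and lists were chosen with earlier results of these data known. The ratio, thinning and pair measures were tested on simulated data. For the ratio these were Poisson counts of independent UMIs, so that test could not show whether the intervals are too narrow. Python 3.11.15, numpy 2.4.6, scipy 1.17.1 and pandas 2.3.3 were used.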

Additional observations from a re-analysis of the deposited data

How the results depend on the processing

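No paired analysis was possible because there is 1 library per genotype and no result comes from a test. Over 15 alternatives the knockout-over-control ratio of the gamma cluster stayed between 0.609 and 0.776, that of the beta cluster between 1.09 and 1.30, that of the alpha cluster between 0.833 and 1.10, and that of all members between 0.879 and 0.993. None of these left the main interval, though subtracting droplet UMIs takes away so few that it could hardly move a ratio. Over the 14 alternatives that recount single members, 16 to 19 gamma members were lower and 11 to 15 beta members higher. For 32 single members, 9 of 480 values left the main interval, 6 of them in cells with Xist and no Y-linked UMI. Pcdhb14, Pcdhga7 and Pcdhga8, whose intervals excluded 1, kept their direction, and Pcdha6, with 11 UMIs, was not recomputed. The number of genes past the fold depends on the fold and the minimum. The 258 higher and 157 lower genes became 490 and 332 at a minimum of 50 UMIs, 106 and 62 at 200, 1000 and 741 at 20 (added after seeing the data), 54 and 15 at 2-fold, 1056 and 812 at 1.25-fold, and 413 and 401 with only the knockout cells that have an Etv4 or Etv5 UMI, where fewer cells were compared. In cells with Xist and no Y-linked UMI 135 genes were higher. The share of cells with at least 2 members follows depth. It was 4.49% in the control and 4.36% in the knockout thinned to 2000 UMIs, 20.6% and 17.2% thinned to 5000, 28.5% and 26.4% unthinned, 0% and 0% where 2 UMIs of a member were required, and 10.9% in control cells with Xist and no Y-linked UMI. The share could not be given with droplet UMIs subtracted, which is defined for sums only. Depth limits single members: with at most 88 UMIs each, most intervals span more than a 2-fold range. Sets of mice, sorting and library preparation cannot be told apart from genotype.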

Other observations

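Farther along the same chromosome, some genes had much larger differences than any cluster of the array. Fgf1, a growth factor gene 996800 bases downstream, had 19 UMIs (2.88 CPM) in the control against 122 (44.1 CPM) in the knockout, a ratio of 15.3 (9.41 to 26.3). Between it and the gamma cluster lie Spry4, an inhibitor of receptor tyrosine kinase signalling 744374 bases downstream (1 control and 24 knockout UMIs), and the noncoding 9630014M24Rik at 759661 bases (3 and 289 UMIs). Nearer to the array, at 568523 bases, Ndfip1, an adaptor of ubiquitin ligases, had a ratio of 1.14 (1.09 to 1.19). These genes were chosen by position after the values were seen.

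Among non-clustered protocadherins that did not reach 1.5-fold, Pcdh10 had 383 UMIs (58.0 CPM) in the control against 111 (40.1 CPM) in the knockout, a ratio of 0.692 (0.555 to 0.857). Pcdh15, known from hair cells of the inner ear, had 375 UMIs (56.8 CPM) and 232 (83.9 CPM), a ratio of 1.48 (1.25 to 1.74). Cdh7, a classical cadherin, had 334 UMIs (50.6 CPM) and 204 (73.8 CPM), a ratio of 1.46 (1.22 to 1.74). These genes were named after their values were seen.

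Within the beta cluster, levels ran higher towards the gamma side in both libraries, with a Spearman's rho between CPM and position of 0.47 in the control and 0.69 in the knockout over 22 members. In the same members rho between CPM and the length of their own exonic bases was 0.57 and 0.66. Position and length were not separated. The members share libraries and annotation, and no test was run.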
